A study of Mus musculus with 2 samples.

Results

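The genes described here encode titin and 8 other scaffold proteins of the cardiac sarcomere, Ttn, Mybpc3, Myom1, Myom2, Actn2, Ldb3, Nebl, Myoz2 and Mypn. They were chosen by name as thick filament, M-band and Z-disc scaffold genes, and all 9 were found among the 25235 genes listed for the hearts, each with at least 20 reads in both libraries. The measurement is single-nucleus RNA-seq of 1 adult heart (9 weeks) and 1 aged heart (78 weeks) of female F1 mice with a C57BL/6J (BL6) mother and a CAST/EiJ (CAST) father. The genotype field of the labels gives C57BL/6JxCAST/EiJ, the breed field names the ∆Xist cross and the titles carry "++", and the study's methods describe these hearts as wild-type. The weeks in the name of the aged file are not those of its label, which was used. For each age, the nuclei whose active X chromosome was the BL6 one were pooled to a single library, so that all cell types of the heart are mixed and no age has a replicate. Reads over a single-nucleotide polymorphism between the strains (SNP-overlapping reads) had been assigned to the BL6 or the CAST allele of each gene.

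The sarcomere is the contractile unit of striated muscle. It lies between neighbouring Z-discs, where the thin actin filaments are anchored, and its thick myosin filaments are crosslinked at the M-band in the middle. Titin runs as a single giant molecule from the Z-disc to the M-band and acts as a molecular spring. Cardiac myosin-binding protein C (Mybpc3) sits on the thick filament, the myomesins (Myom1 and Myom2) bridge thick filaments and titin at the M-band, and alpha-actinin 2 (Actn2) crosslinks actin and titin at the Z-disc. There it is joined by the PDZ-LIM protein Cypher (Ldb3), by nebulette (Nebl), the cardiac relative of nebulin, by the calcineurin-binding calsarcin 1 (Myoz2) and by myopalladin (Mypn).

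RefSeq (GRCm38.p6) gave 12 promoters for 8 of the 9 genes, and Myom2 has no entry. The 250 bases before the start are printed for the genes past 1.5-fold between the ages that have an entry (Ttn, Myoz2, Mypn) and for Mybpc3, whose BL6 share differed between the ages. They were searched on both strands for the MCAT motif (CATTCC), the GATA motif (AGATAA), the TATA motif (TATAAA) and, by name, the MEF2 and CArG motifs of muscle promoters, and capitals mark the matches. The windows are chr2:76982548-76982797 (Ttn, minus strand), chr2:91117894-91118143 (Mybpc3, plus strand), chr3:123034988-123035237 (Myoz2, minus strand) and chr10:63203953-63204202 (Mypn, minus strand), each written 5′ to 3′ along its gene.
Ttn: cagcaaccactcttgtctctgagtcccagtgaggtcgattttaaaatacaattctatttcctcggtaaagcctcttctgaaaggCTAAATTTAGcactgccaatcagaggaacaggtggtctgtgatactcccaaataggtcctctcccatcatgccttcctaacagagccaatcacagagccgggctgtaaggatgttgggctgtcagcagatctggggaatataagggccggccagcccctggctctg
Mybpc3: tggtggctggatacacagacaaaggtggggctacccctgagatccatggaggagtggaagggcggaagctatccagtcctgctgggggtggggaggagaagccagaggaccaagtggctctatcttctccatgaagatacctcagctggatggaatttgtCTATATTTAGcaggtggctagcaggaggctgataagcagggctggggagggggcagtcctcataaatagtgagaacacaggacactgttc
Myoz2: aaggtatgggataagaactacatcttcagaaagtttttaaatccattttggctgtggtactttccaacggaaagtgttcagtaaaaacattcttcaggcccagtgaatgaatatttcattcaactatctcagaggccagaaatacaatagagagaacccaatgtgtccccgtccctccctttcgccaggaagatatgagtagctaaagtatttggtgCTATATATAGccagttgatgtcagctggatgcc
Mypn: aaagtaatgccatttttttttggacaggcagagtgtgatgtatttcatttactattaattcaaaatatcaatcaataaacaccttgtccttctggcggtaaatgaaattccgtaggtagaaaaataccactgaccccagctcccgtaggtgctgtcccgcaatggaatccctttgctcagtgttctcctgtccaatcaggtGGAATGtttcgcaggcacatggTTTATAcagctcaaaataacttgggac
The match is a MEF2 motif in Ttn (166 to 157 bases before the start), in Mybpc3 (90 to 81) and in Myoz2 (33 to 24). Mypn has none, and holds an MCAT motif 49 to 44 bases and a TATA motif 27 to 22 bases before the start, both on the opposite strand. No match in these 4 windows overlaps another. Of 32851 RefSeq promoters searched in the same window, 1.69% hold the MEF2 motif, 1.47% the CArG, 12.6% the MCAT, 12.4% the TATA and 9.99% the GATA motif. CArG matches were present in Myom1, Ldb3 and Nebl. A match describes the letters of the window and is not a measured binding site.

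Read totals were 9747535 for the adult and 5805807 for the aged library, and the reads of a gene were therefore divided by the total of its library and given as reads per 1000000 (RPM). Each age has 1 library, so the ages could not be tested against each other. Intervals are exact 95% intervals (Poisson for RPM, binomial for shares and for aged/adult ratios) that cover counting error only, and several reads may stem from the same molecule. A gene was called higher or lower past 1.5-fold. The aged/adult log2 ratio of RPM had a median of 0.22 over the 12390 autosomal genes with at least 20 reads in both libraries, with an interquartile range from -0.20 to 0.65, so an unchanged RPM lies below the median gene.

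Of the 9 scaffold genes, 3 were lower in the aged library (Ttn, Myom2 and Myoz2), 1 was higher (Mypn) and 5 were within 1.5-fold (Nebl, Myom1, Ldb3, Mybpc3 and Actn2). Over all autosomal genes, 11.7% were lower and 28.3% higher by the same rule. Together the 9 genes took 1.59% of all adult reads (154996) and 1.04% of all aged reads (60539), a ratio of 0.656 (0.650 to 0.662). Ttn made up 74.5% of the adult sum and 65.9% of the aged sum, and the other 8 genes together gave a ratio of 0.877 (0.863 to 0.892). In a pooled library, fewer nuclei of a type and less RNA per nucleus cannot be told apart.

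**Figure D1:**
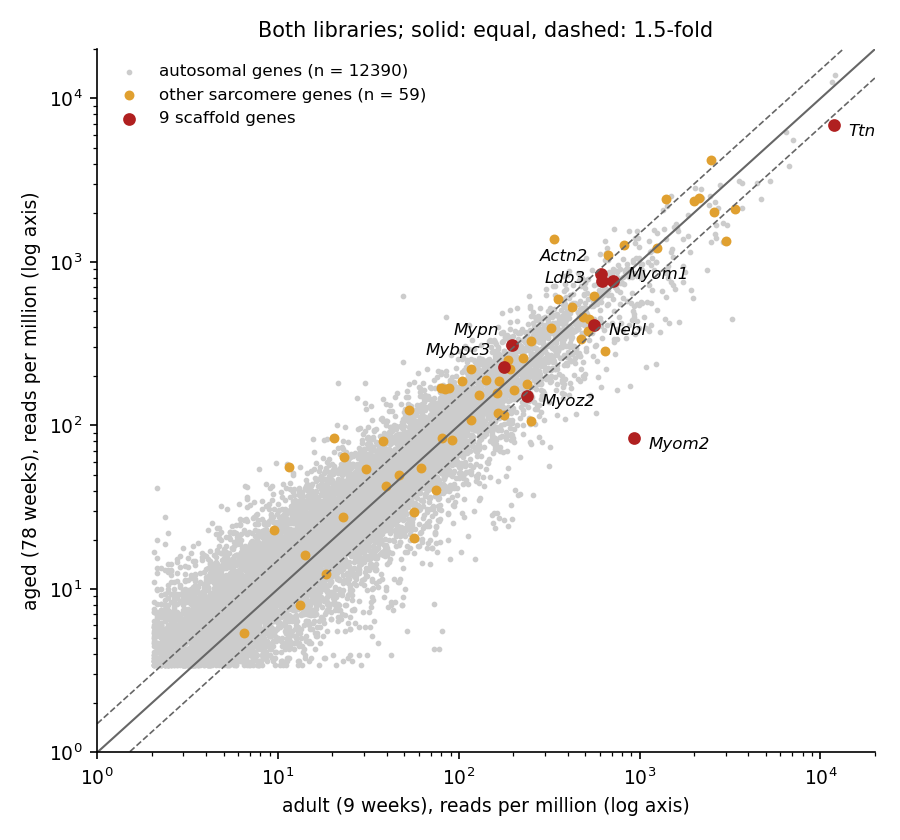
RPM of each gene in the adult (x axis) and aged library (y axis), both on log axes, for 12390 autosomal genes (grey), 59 other sarcomere genes (orange) and the 9 scaffold genes (red); the solid line marks equal values and the dashed lines 1.5-fold. Myom2 lies farthest below the lines among the 9 genes (935 against 83.5 RPM), Ttn is among the highest genes of both libraries, and Mypn lies just above the upper dashed line.

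Ttn lies on the minus strand of chromosome 2 of GRCm38, from 76703980 to 76982557, and its transcript with most exons has 347 in GENCODE. In the adult heart 61500 reads came from BL6 and 53997 from CAST, and in the aged heart 20981 and 18915. Only 1 gene had more reads than Ttn in the adult library, and 2 had more in the aged library. The level was 11849 RPM (11781 to 11917) in the adult heart and 6872 RPM (6804 to 6940) in the aged heart, a ratio of 0.580 (0.573 to 0.587). Both alleles were lower by a like size, with a ratio of 0.573 (0.564 to 0.582) for BL6 and 0.588 (0.578 to 0.598) for CAST. The difference exceeded 1.5-fold under each scale tried, with ratios from 0.503 to 0.636. The ratio of a gene also moved with the length of its locus. Among the 1175 autosomal genes with at least 1000 reads in both libraries, the median log2 ratio was 0.34 in the quartile with the shortest loci and -0.08 in the quartile with the longest (243 kb or more), to which Ttn belongs with 279 kb. Relative to that median, the log2 ratio of Ttn was -0.70. It was -1.01 relative to the median autosomal gene with at least 20 reads in both libraries, and -0.79 with no median taken off.

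Myom2 showed the lowest ratio of the 9 genes. It encodes M-protein, a myomesin of the M-band, and lies on the plus strand of chromosome 8 from 15057653 to 15133420. The adult heart gave 3900 reads of the BL6 and 5217 of the CAST allele, the aged heart 197 and 288. The level was thus 935 RPM (916 to 955) in the adult heart and 83.5 RPM (76.3 to 91.3) in the aged heart, 11.2-fold lower (10.2 to 12.3). By number of reads, the gene was at rank 124 of all genes in the adult library and at rank 2577 in the aged library. Both alleles were lower by a like size, with ratios of 0.0848 (0.0731 to 0.0979) for BL6 and 0.0927 (0.0820 to 0.104) for CAST. A lower ratio was found for 3 of the 12390 autosomal genes. The other myomesin, Myom1 (chromosome 17, plus strand, 71019002 to 71126856), had 6935 adult and 4440 aged reads. Its level was 711 RPM (695 to 728) and 765 RPM (742 to 788), a ratio of 1.07 (1.03 to 1.12) that turned to 0.932 when the libraries were scaled by the median ratio of genes and to 0.934 relative to genes of like locus length. The reads of both myomesins can also be compared within a library, free of any scale between the libraries. There were 1.31 Myom2 reads (1.27 to 1.36) for each Myom1 read in the adult heart and 0.109 (0.0993 to 0.120) in the aged heart. Per kb of locus, these were 1.87 and 0.155. The remaining myomesin, Myom3, had 45 and 6 reads.

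Mybpc3 (chromosome 2, plus strand, 91118114 to 91136516) differed between its alleles. BL6 reads numbered 798 in the adult heart and 706 in the aged heart, and CAST reads 927 and 616. In the adult library CAST reads were therefore in excess, and in the aged library BL6 reads. The summed level was 177 RPM (169 to 186) in the adult heart and 228 RPM (216 to 240) in the aged heart, a ratio of 1.29 (1.20 to 1.38). The BL6 allele alone gave a ratio of 1.49 (1.34 to 1.65) and the CAST allele 1.12 (1.01 to 1.24). Relative to genes of like locus length, the ratio of the summed reads was 1.02.

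Of the Z-disc genes, Actn2 and Ldb3 had more and Nebl and Myoz2 fewer RPM in the aged library. Actn2 (chromosome 13, minus strand, 12269426 to 12340732) had 5942 adult and 4902 aged reads, or 610 RPM (594 to 625) and 844 RPM (821 to 868). The ratio was 1.39 (1.33 to 1.44), and it passed 1.5-fold, at 1.52, with the cardiomyocyte markers as the scale. The loci Gm30026 and Gm40667 lie inside that of Actn2, with 7 and 7 and with 484 and 385 reads. No source states that reads were counted by strand, so these reads, together at most 8.26% of those of Actn2 in either library, cannot be told apart from it. Ldb3 (chromosome 14, minus strand, 34526699 to 34590323) had 6054 and 4419 reads, or 621 RPM (606 to 637) and 761 RPM (739 to 784). Its ratio was 1.23 (1.18 to 1.27), and 0.971 relative to genes of like locus length.

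Nebl has the longest locus of the 9 genes (388 kb, chromosome 2, minus strand, 17343030 to 17731068). It had 5481 reads in the adult heart and 2397 in the aged heart, or 562 RPM (548 to 577) and 413 RPM (396 to 430). The ratio of 0.734 (0.700 to 0.770) was within 1.5-fold with all genes as the scale and passed it, at 0.636, with the median ratio of genes. Relative to the median of the quartile with the longest loci, the log2 ratio was -0.36. Myoz2 (chromosome 3, minus strand, 123006206 to 123035003) had 2332 reads in the adult heart and 878 in the aged heart, 239 RPM (230 to 249) and 151 RPM (141 to 162). Both alleles of this calcineurin-binding protein were lower. The ratio was 0.632 (0.584 to 0.683), 1.58-fold lower, and its interval includes 1.5-fold. With the cardiomyocyte markers as the scale it was 0.693, within 1.5-fold. Its locus is short (28.8 kb), and relative to genes of like locus length the ratio was 0.501.

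Mypn (chromosome 10, minus strand, 63115795 to 63203952), which binds alpha-actinin and nebulin family proteins at the Z-disc, gave 1202 reads of the BL6 and 711 of the CAST allele in the adult heart, and 1129 and 671 in the aged heart. The level was 196 RPM (188 to 205) and 310 RPM (296 to 325). The ratio of 1.58 (1.48 to 1.69) was the only one of the 9 above 1.5, and its interval includes 1.5. It was 1.37 by the median ratio of genes and 1.37 relative to genes of like locus length. Both alleles had the same ratio within counting error, 1.58 for each. Palld, the ubiquitous relative of Mypn, had 29436 and 7830 reads and was itself lower, at 0.447. Beside 100 Palld reads stood 6.50 Mypn reads in the adult heart and 23.0 in the aged heart. The locus of Palld (391 kb) is longer than that of Mypn (88.2 kb), and the trend with locus length is not taken out here.

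**Figure D2:**
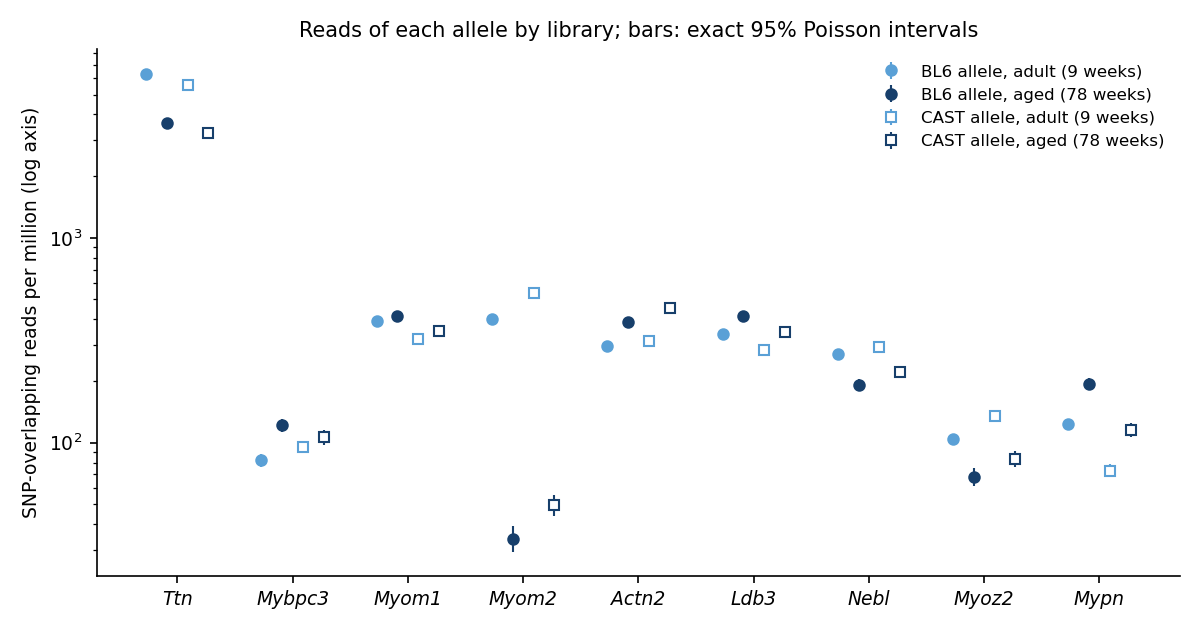
RPM on a log axis for the BL6 (filled circles) and CAST allele (open squares) of each gene in the adult (light) and aged library (dark), with exact 95% Poisson intervals for counting error. Both alleles of Ttn, Myom2 and Myoz2 are lower in the aged heart, both alleles of Mypn are higher, and for Mybpc3 the BL6 allele lies below the CAST allele in the adult heart and above it in the aged heart.

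The scale decided some of the calls. The median log2 ratio of all genes was 0.22 with all genes as the scale, 0.02 with the median ratio of genes and 0.36 with the cardiomyocyte markers. Relative to the median gene, the log2 ratios were -3.71 for Myom2, -1.01 for Ttn, -0.89 for Myoz2, -0.67 for Nebl, -0.12 for Myom1, 0.07 for Ldb3, 0.14 for Mybpc3, 0.25 for Actn2 and 0.44 for Mypn. The order of the 9 genes is the same under every such scale, since a scale moves all of them alike. Ttn and Myom2 were lower by 1.5-fold under each scale, relative to genes of like locus length included, whereas Myoz2, Nebl, Actn2 and Mypn changed sides of 1.5-fold under at least 1 of them.

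**Figure D3:**
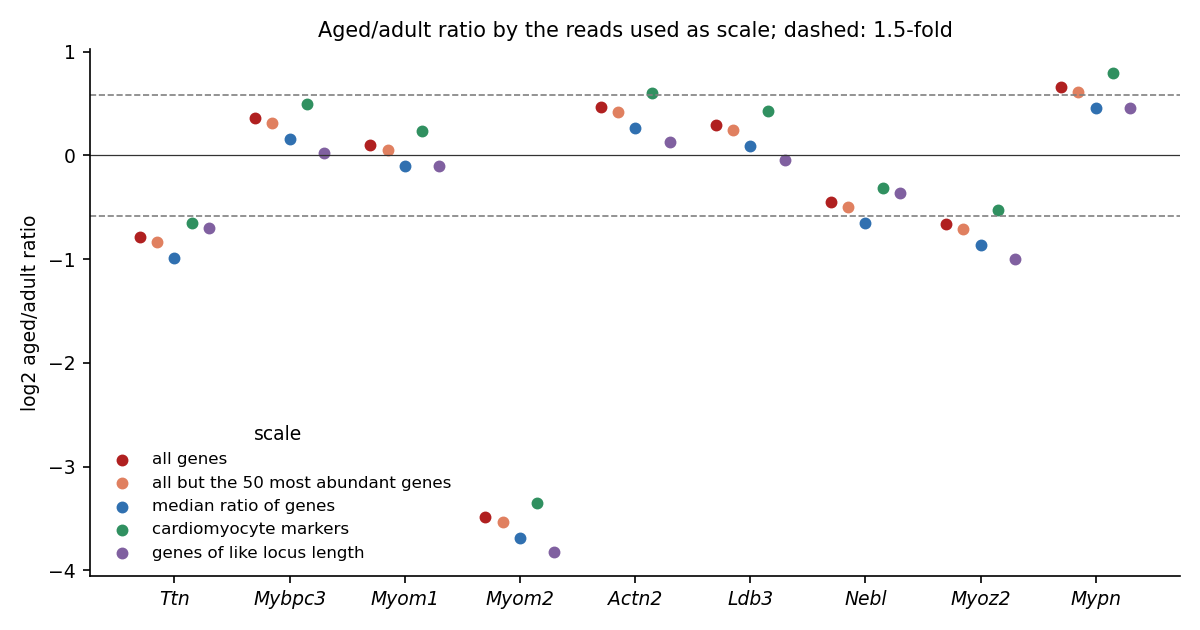
Aged/adult log2 ratio of each gene with 5 scales, namely the reads of all genes, all but the 50 most abundant genes, the median ratio of genes, the cardiomyocyte markers, and genes of like locus length; dashed lines mark 1.5-fold. All 5 points of Myom2 lie below -3 and all 5 of Ttn below the lower dashed line, while the points of Mypn, Actn2, Nebl and Myoz2 fall on both sides of a dashed line.

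To set the levels of the 9 genes in an order, their RPM were divided by the length of the locus in kb. The droplet-based kit captures RNA at poly-A, so reads need not grow with the length of a locus, and whether they do was not tested. The order below therefore rests on this division. By RPM alone, Nebl (562 adult, 413 aged) stood above Mybpc3 (177 and 228), and per kb below it. Ranks by reads and ratios of reads between genes given elsewhere are not per length and serve to compare the libraries. The number of SNPs in a gene, which also sets how many of its reads are counted, is not in the deposited values. Ttn had the highest level in both libraries, with 42.5 RPM per kb in the adult heart and 24.7 in the aged heart. Myom2 was second in the adult heart with 12.3 RPM per kb (12.1 to 12.6). It was followed by Ldb3 (9.76) and Mybpc3 (9.62), whose intervals overlapped, by Actn2 (8.55) and Myoz2 (8.31), whose intervals overlapped as well, and by Myom1 (6.60), Mypn (2.23) and Nebl (1.45). In the aged heart Myom2 stood at 1.10 RPM per kb (1.01 to 1.21), level with Nebl at 1.06 (1.02 to 1.11) at the low end. Mybpc3 (12.4), Ldb3 (12.0) and Actn2 (11.8) were then next to Ttn with overlapping intervals, followed by Myom1 (7.09), Myoz2 (5.25) and Mypn (3.52). The median autosomal gene was at 0.875 and 1.02 RPM per kb, so by this measure all 9 values lay above it in both libraries. The interval of Myom2 in the aged heart, however, includes the median gene.

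The allelic ratio, that is the BL6 share of the reads, was 0.534 over all autosomal reads in the adult heart and 0.538 in the aged heart. The 9 genes ranged around it from 0.428 (Myom2) to 0.628 (Mypn) in the adult heart and from 0.406 to 0.627, for the same genes, in the aged heart. Mypn was the only one with an interval above 0.6 in both libraries, 0.606 to 0.650 and 0.604 to 0.650, as were 4.17% of autosomal genes with at least 1000 reads. Divided by the odds of all autosomal reads, its share was 0.596 and 0.591. CAST reads were in excess, with intervals below 0.5 in both libraries, for Myom2 (0.428 and 0.406), Myoz2 (0.435 and 0.450), Nebl (0.481 and 0.465) and Actn2 (0.484 and 0.459). None of the 9 intervals lay below 0.4.

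Between the ages, the BL6 share of Mybpc3 moved most. It was 0.463 (0.439 to 0.486) in the adult heart and 0.534 (0.507 to 0.561) in the aged heart, a change (adult minus aged) of -0.0714 (-0.107 to -0.0356, Newcombe interval). These were the only separate intervals among the 9 genes, as against 11.8% of autosomal genes with at least 20 reads and 31.7% of those with at least 1000, a depth that 7 of the 9 genes, Mybpc3 among them, reach in both libraries. The aged share equals that of all autosomal reads within its interval, and the adult share lies below it. Actn2 had 0.484 (0.471 to 0.496) and 0.459 (0.445 to 0.473), with overlapping intervals, although the interval of the change, 0.0058 to 0.0435, leaves out 0. For Ttn, which has the most reads, the shares were 0.532 and 0.526, a change of 0.0066 (0.0009 to 0.0123). Over the autosomal genes with at least 1000 reads, the median absolute change in share was 0.0266, or 2.54 times the 0.0104 that counting error gives, and with intervals widened by this factor those of Mybpc3 overlap.

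**Figure D4:**
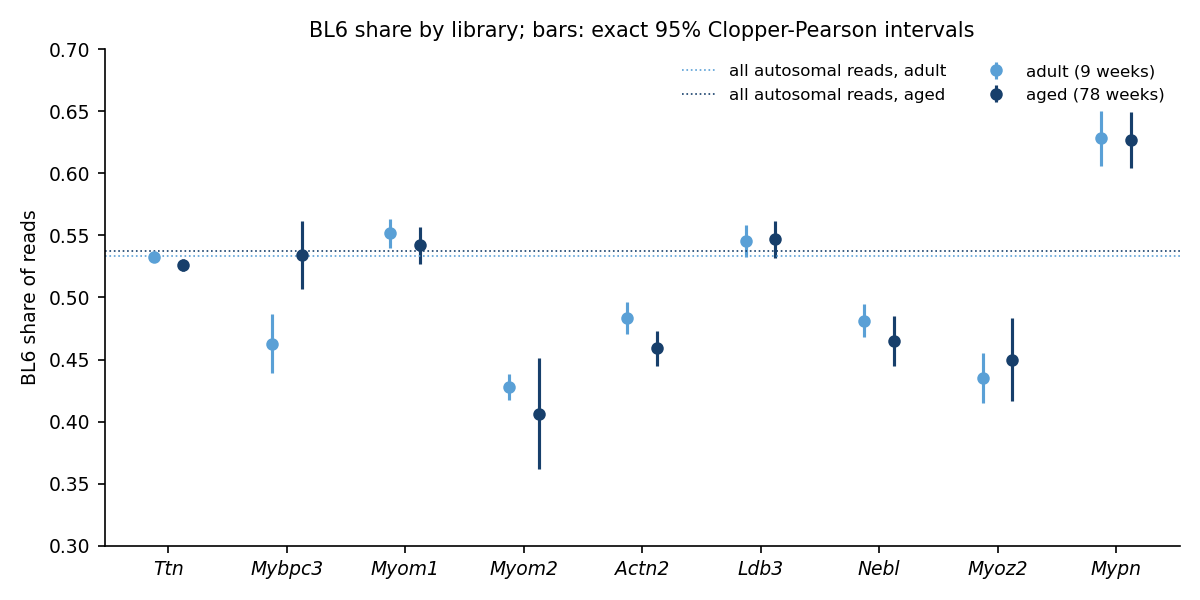
BL6 share of the reads of each gene in the adult (light) and aged library (dark) with exact 95% Clopper-Pearson intervals; dotted lines show the share of all autosomal reads (0.534 and 0.538), and the axis does not start at 0. Mybpc3 alone has separate intervals, and Mypn alone lies above 0.6 in both libraries.

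The reads of cell type markers differed between the pools as well. The 10 cardiomyocyte markers, all of them detected and led by Ryr2 and Slc8a1, summed to 34680 and 31621 RPM in adult and aged, a ratio of 0.912, with 1 gene higher (Tbx20) and 3 lower (Mlip, Trdn and Ctnna3). The markers ranged from 0.460 (Mlip) to 1.91 (Tbx20), so that a comparison of Ttn with a single marker depends on the marker. For each Ryr2 read there were 0.982 Ttn reads (0.974 to 0.990) in adult and 0.496 (0.490 to 0.502) in aged nuclei, and for each Slc8a1 read 1.84 and 1.10. Beside the 3 lower markers, the ratio of Ttn reads was 3.21 and 3.22 for Trdn, 2.25 and 2.20 for Ctnna3, and 4.11 and 5.18 for Mlip. Ttn was thus lower relative to Ryr2 and Slc8a1 and not relative to Trdn or Mlip. The ratio of Myom2 to Ryr2 reads was 0.0775 and 0.00603. Of the 5 ventricular markers 4 were higher and 1 lower, with a summed ratio of 1.41, and the 2 with most adult reads, Myh7 and Mpped2, differed (1.54 and 0.504). The summed ratio was 0.803 for atrial markers (Myl4 and Nppa). All 6 atrial markers were below 1. Myl4 was at 0.884, Nppa at 0.818, Mybphl at 0.675 and Sln at 0.661, and of these only Sln passed 1.5-fold. The aged counts of Myl7 (0.442, from 38 and 10 reads) and Bmp10 (0.0579, from 29 and 1) fell short of the minimum. Markers of other cells were at 1.39 for fibroblasts (Abca8a and Dcn, from 1533 to 2126 RPM), 1.27 for endothelial cells (Mecom and Tek, from 1671 to 2122 RPM), 1.80 for pericytes (Pdgfrb and Notch3, with Kcnj8 not listed in either library), 3.00 for smooth muscle (Myh11 and Acta2, from 94.2 to 283 RPM), 1.60 for macrophages (F13a1 and Mrc1) and 0.856 for lymphocytes (Bank1 and Ptprc). These sums hide differences between markers. Of 9 fibroblast markers with at least 20 reads in both libraries, 6 were higher and 1 lower (Col3a1, 0.654). Of 10 endothelial markers 4 were higher and none lower, from Egfl7 at 3.14 to Mecom at 0.986 and Vwf at 0.953. Of 3 lymphocyte markers none was higher and 1 was lower (Skap1, 0.293), with Ptprc at 1.37. In pericytes 3 of 4, in smooth muscle 3 of 3 and in macrophages 3 of 5 were higher and none lower. Myom2 and Neb are also genes of skeletal muscle. The skeletal muscle markers summed to 72.9 RPM in the adult heart and 26.9 RPM in the aged heart (led by Neb and Myl1). Of their 711 and 156 reads, Neb gave 549 and 119. Myl1 was at 0.280 from 90 and 15 reads. Actn3, Mybpc1, Mybpc2 and Tnnt3, with fewer adult reads than Myl1, were each below 1. Myh1, Myh2 and Myh4 were not listed in either library. The level of Myom2 was 935 and 83.5 RPM. Myh7, Myl2, Myl4, Myl7, Mybphl and Neb are also in the lists of sarcomere genes given next. The part of these markers in the results was not tested.

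The other genes of the sarcomere were taken from 5 lists of 66 genes, 59 of which had at least 20 reads in both libraries. By the 1.5-fold rule 18 of the 59 were higher and 9 lower, beside 28.3% and 11.7% of all autosomal genes. The median log2 ratio was 0.19 against 0.22 over all autosomal genes. Separate share intervals were found for 17 of 58 autosomal ones. This stands beside 11.8% of all autosomal genes with at least 20 reads and 31.7% of those with at least 1000. Of 10 thick filament genes, 3 were higher and 1 lower (median 0.15). The lower gene was Mylk3, the cardiac kinase of the myosin light chain, at 0.442 (0.419 to 0.467). The ventricular light chain Myl2 was at 1.80 and the muscle methyltransferase Smyd1 at 1.66, and Myh7 was the other higher gene at 1.54. The myosin heavy chains Myh6 and Myh7 had 2135 and 2451 and 822 and 1263 RPM, and their BL6 shares went from 0.378 to 0.426 and from 0.577 to 0.538, with separate intervals.

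Of 7 further M-band genes, 2 were higher and 1 lower (median 0.12). Lrrc39, which encodes a myosin-binding M-band protein, was the lower one at 0.425 (0.389 to 0.465). Its BL6 share went from 0.545 to 0.460, with separate intervals. Muscle creatine kinase (Ckm) was at 1.77, the LIM protein gene Fhl2 at 1.70, and Cmya5, which encodes myospryn, had shares of 0.515 and 0.637. Myom2 thus had a lower ratio than any of these 7 genes. Of 8 thin filament genes, 1 was higher and 1 lower (median 0.15), namely cardiac actin, Actc1, from 337 to 1385 RPM (4.11, 3.95 to 4.28), and leiomodin 3, Lmod3, at 0.520 (0.436 to 0.619). Tnni3 was at 1.35, and the share of Tnnc1 went from 0.547 to 0.618.

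Of 23 further Z-disc genes, 10 were higher and 3 lower (median 0.28). The actin crosslinker filamin C (Flnc) was at 4.87 from 112 and 325 reads and the PDZ-LIM gene Pdlim7 at 4.12 from 199 and 488 reads. Nebulin (Neb), the skeletal relative of Nebl, was at 0.364 from 549 and 119 reads, and the other lower genes were Palld (0.447) and the actin-binding Synpo2l (0.599). Separate shares were found for 8 of the 23 genes, beside 11.8% of all autosomal genes with at least 20 reads and 31.7% with at least 1000. Among the 8 were myotilin, Myot (0.621 and 0.738), and Pdlim3 (0.392 and 0.275). Of 11 titin partners, 2 were higher and 3 lower (median -0.11). Ankrd23, an ankyrin repeat protein that binds titin, was at 2.75, the X-linked Fhl1 at 2.01 and the methyltransferase Smyd2 at 0.539. The other lower genes were the ubiquitin ligase Trim63 (0.645) and Rbm20. Rbm20, the splicing factor of titin transcripts, had 3377 RPM in the adult heart and 2121 in the aged heart, a ratio of 0.628 (0.615 to 0.641) beside the 0.580 of Ttn, and its BL6 share was 0.585 and 0.615. Among the genes named from these lists, Myl2, Myh6, Myh7, Lrrc39, Ckm, Fhl2, Cmya5, Neb, Lmod3, Palld and Rbm20 overlap other listed loci.

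**Figure D5:**
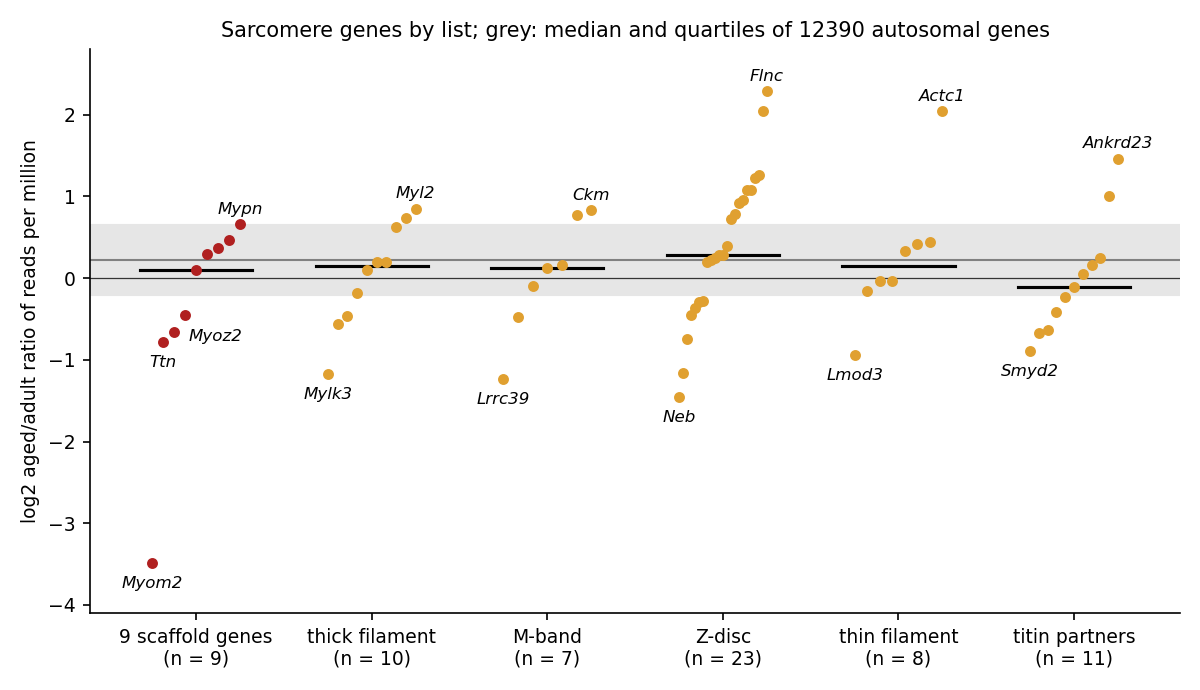
Aged/adult log2 ratio of RPM for the 9 scaffold genes (red) and the other sarcomere genes by list (orange), with black bars for list medians and grey for the median and quartiles of 12390 autosomal genes. Myom2 at -3.48 lies below every other sarcomere gene shown, and list medians run from -0.11 to 0.28.

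The genes most like Ttn over the 4 values measured (2 alleles at 2 ages, in log2 RPM centred on each gene) were sought among 1194 genes with at least 1000 reads in both libraries. They were Fnip2, with a root mean square difference of 0.0275, Nrp1, with 0.0371, and Ctnna3, with 0.0457. Their aged/adult ratios were 0.567, 0.551 and 0.592, and their BL6 shares lay between 0.508 and 0.535. Only 4 values from 2 libraries stand behind this likeness.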

How the data were processed

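Nuclei were isolated from frozen hearts and stained for DNA. The stained population was sorted to leave out debris and sequenced with a droplet-based poly-A kit. The submitters' processing notes name Cell Ranger 7.1.0, Seurat 5.1.0 and mm10. Per its methods, the study pooled the nuclei with a BL6 active X chromosome of each age and counted SNP-overlapping reads per RefSeq gene with Allelome.PRO2. It removed doublets from its expression matrices with DoubletFinder; whether the pooled nuclei were limited to those left is not given in the sources used here, and no doublet could be removed from pooled counts. RNA from outside the nuclei (ambient RNA) was removed with CellBender from the study's expression matrices. The pools were split from the Cell Ranger alignments, so their counts do not carry that correction. The authors deposited these values as raw counts per allele and gene, whole locus and introns included, without normalization, together with the allelic ratio as a fraction rounded to 2 decimals. The deposited allelic score was not used. Whether duplicate reads were collapsed or the strand was used is not given in the sources used here.

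Shares, RPM, ratios and intervals (exact Clopper-Pearson, Poisson and binomial, and Newcombe for changes in share) were computed from the counts with Python 3.11.15, numpy 2.4.6, scipy 1.17.1 and pandas 2.3.3, and the functions were tested on simulated data. Counts over all genes used a minimum of 20 reads in both libraries. The ages were not tested against each other, since each has 1 library. Coordinates (GRCm38, 1-based) follow the deposited values, with strands and exons from GENCODE M21.

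The members and gene lists were chosen with earlier results of these data known. All 9 members were named. From each list, up to 3 genes with at least 100 reads in both libraries and the largest absolute log2 ratio and up to 2 with the largest change in share among those with separate intervals were named, as were Rbm20, the 3 genes most like Ttn, overlapping loci and the 2 marker genes with most adult reads. Myom3, Palld, Synpo2l, Trim63, single marker genes, the promoters printed, the pairs of genes compared within a library and the neighbouring genes were chosen after their values were seen. Alternatives were other scales, each allele alone, other folds, minimums and intervals, deposited ratios, correction for the autosomal share and removal of overlapping loci. The comparison with genes of like locus length was added after seeing the data.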

Additional observations from a re-analysis of the deposited data

How the results depend on the processing

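No paired analysis was possible because each age has 1 library, so that fewer than 2 pairs exist. In place of 1 scaffold gene higher by 1.5-fold, 0 were higher when scaled by the median ratio, 2 when scaled to the cardiomyocyte markers (Mypn and Actn2), 0 relative to genes of like locus length, 3 past a log2 ratio of 0.32 (Mypn, Actn2 and Mybpc3) and 0 at 2-fold. In place of 3 lower genes, 1 was lower at 2-fold (Myom2), 4 by the median ratio and 2 by the cardiomyocyte markers (Ttn and Myom2). The single gene with separate share intervals, Mybpc3, became 0 with widened intervals, and the share of autosomal genes with separate intervals was 31.7% instead of 11.8% at a minimum of 1000 reads. Without loci that overlap others, the median log2 ratio was 0.85 for 14 Z-disc genes, 0.37 for 6 thin filament genes, 0.045 for 9 titin partners and -0.17 for the scaffold genes without Actn2. The cause of these shifts was not tested. In all, 32 values of this kind, the 4 and 2 lower genes just given included, stayed within 1.5 times for counts and within 0.1 for medians. Of the values for single genes, 74 stayed inside their counting interval and 52 left it, and the ratios of Myom1 and Ldb3 crossed 1. Depth limits the aged values of Myom2 (485 reads) and Myoz2 (878 reads) most, and with 1 heart per age the spread between animals is not measured.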

Other observations

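The loci next to Myom2 and Ttn were looked at after their values had been seen. Of the genes within 300 kb of Myom2, 4 had at least 20 reads in both libraries. None of them was lower by 1.5-fold in the aged library. By the same rule 11.7% of all autosomal genes were lower, so 4 genes do not tell this region apart from others. Arhgef10, with 428 and 249 reads, had a ratio of 0.977 (0.832 to 1.14), Cln8, with 65 and 41 reads, of 1.06 (0.698 to 1.59), Kbtbd11, with 22 and 23 reads, of 1.76 (0.935 to 3.30) and Dlgap2, with 28 and 79 reads, of 4.74 (3.04 to 7.57). Within 300 kb of Ttn, 9 genes had enough reads. Ccdc141, which starts 27.3 kb from Ttn, had 9067 and 2667 reads and a ratio of 0.494 (0.473 to 0.516). Osbpl6 was at 0.389 (0.348 to 0.435), Gm39862, which lies inside the locus of Ccdc141, at 0.204 (0.160 to 0.257), and the other 6 genes were between 0.815 and 1.41.

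Within a library, the reads of the scaffold genes shifted against each other. For 100 Ttn reads there were 5.14 Actn2 reads at 9 weeks and 12.3 at 78 weeks, 1.49 and 3.31 Mybpc3 reads, and 6.00 and 11.1 Myom1 reads. For 100 Actn2 reads there were 92.2 and 48.9 Nebl reads and 39.2 and 17.9 Myoz2 reads. These ratios need no scale between the libraries, but the trend with locus length given above is not taken out of them. Actn2, Mybpc3 and Myoz2 lie in the quartile with the shortest loci, where the median log2 ratio was 0.34. Ttn and Nebl lie in the quartile with the longest, where it was -0.08. Like all values here, the ratios rest on 1 heart per age.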
